A study of Homo sapiens with 4 samples.

Results

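A set of 8 miRNAs known from liver and blood cells was followed in HCT116 and RKO cells and in HCT116-R and RKO-R, their acquired radioresistant derivatives. These were hsa-miR-122-5p of liver, hsa-miR-451a, hsa-miR-486-5p and hsa-miR-144-3p of red blood cells, and hsa-miR-223-3p, hsa-miR-142-5p, hsa-miR-142-3p and hsa-miR-150-5p of white blood cells, named without the prefix from here on. They are 8 of the 1474 miRNAs with at least 1 count in any of the 4 libraries. HCT116 and RKO are established human colorectal cancer lines kept in medium with fetal bovine serum. HCT116-R and RKO-R were derived from them by repeated fractions of x-rays and were then grown for some weeks without irradiation, so each is a selected population of its parental line. Each line gave 1 small RNA library, so no difference between libraries has a replicate check. Where 4 values follow each other without names, they stand for HCT116, HCT116-R, RKO, RKO-R. The counts summed to between 6818497 in HCT116-R and 7140460 in RKO, and 3 counts, taken here as the smallest amount that can be shown, correspond to between 0.420 and 0.440 CPM (counts scaled to a library total of 1e6). Intervals and this floor cover counting error only. In total RNA of a culture, fewer cells holding a miRNA and less of it per cell cannot be told apart.

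The question was whether the lower level of miR-122-5p in the libraries of both radioresistant lines was shared by the blood miRNAs. MiR-122-5p was selected on its lower CPM in both radioresistant libraries, so its radioresistant to parental ratios are a description and are given without a p-value. Calls over these comparisons are counted further on, and nothing is read from them. The other 7 miRNAs were listed for the tissue they are known from, with earlier results of these libraries known, and no p-value is given for them in these comparisons either.

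A miRNA is cut from a hairpin precursor as a short duplex, whose arms are named 5p and 3p, and 1 arm is usually kept by an Argonaute protein. Bases 2 to 8 from its 5′ end, the seed, pair with target mRNAs. MiR-122-5p is the dominant miRNA of hepatocytes, where it acts in lipid metabolism. MiR-451a and miR-144-3p are processed from neighbouring hairpins of a single erythroid transcript, and miR-451a is unusual in being cut by Argonaute 2 and not by Dicer. MiR-223-3p is a regulator of neutrophil and monocyte differentiation, the arms of the MIR142 hairpin are found in nearly all blood cells, and miR-150-5p marks mature lymphocytes. All of them circulate in serum or plasma.

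The mature sequences that the RefSeq table held (GRCh38.p14) are shown 5′ to 3′ with the seed in capitals. They show that no seed is shared among these members, and that the arms of MIR142 carry unlike seeds. The last line is the miRNA annotated on the strand opposite to miR-122-5p.
hsa-miR-122-5p: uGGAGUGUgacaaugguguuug
hsa-miR-223-3p: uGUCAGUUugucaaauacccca
hsa-miR-144-3p: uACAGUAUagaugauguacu
hsa-miR-142-5p: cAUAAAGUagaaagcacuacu
hsa-miR-142-3p: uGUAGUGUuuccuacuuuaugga
hsa-miR-3591-3p: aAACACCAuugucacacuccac

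Sequences were matched for 5 of the 8 members, and miR-451a, miR-486-5p and miR-150-5p are given by name. Among all mature human miRNAs of that table, miR-142-5p shared its seed with miR-5590-3p, which was listed in no library, and the other 4 members shown shared theirs with none. MiR-122-5p lies at chromosome 18, 58451088 to 58451109 (plus strand), and overlaps an exon of MIR122HG, a long non-coding gene. MiR-3591-3p is its reverse complement over 21 bases and lies on the minus strand from 58451087 to 58451108. The MIR451A hairpin (chromosome 17, 28861369 to 28861440) and the MIR144 hairpin (28861533 to 28861618) lie on the minus strand and overlap an exon of AC024267.1, a non-coding gene. The MIR142 hairpin, also of chromosome 17 and minus strand, extends from 58331232 to 58331318 and overlaps an exon of AC004687.1, also non-coding, and an intron of TSPOAP1-AS1 on the other strand. MIR223 lies on the plus strand of the X chromosome from 66018870 to 66018979 and overlaps an exon of AL034397.3, again non-coding. MIR150 occupies chromosome 19, 49500785 to 49500868 (minus strand), where GENCODE release 29 has no other gene.

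The members were minor components of all 4 libraries. HCT116 and RKO each listed 7 of them, HCT116-R listed 8 and RKO-R listed 6. Summed, they held 129.9, 52.7, 31.4 and 15.2 CPM. MiR-122-5p made up 63.2% of that sum in HCT116 and 48.7% in RKO, against 17.3% in HCT116-R and 17.1% in RKO-R. A list of 10 miRNAs of gut epithelium was also counted, of which 9 had at least 10 counts in each library. These 10 summed to 66709, 60966, 10546 and 12256 CPM, and miR-215-5p was the member at 0 counts in HCT116, RKO and RKO-R. In RKO, miR-429 held 7251 CPM of the sum, while miR-141-3p had 17 counts and miR-375-3p had 57. A level of 10 counts does not test the label of the cells, since miR-122-5p also exceeded it in all 4 libraries.

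**Figure D1:**
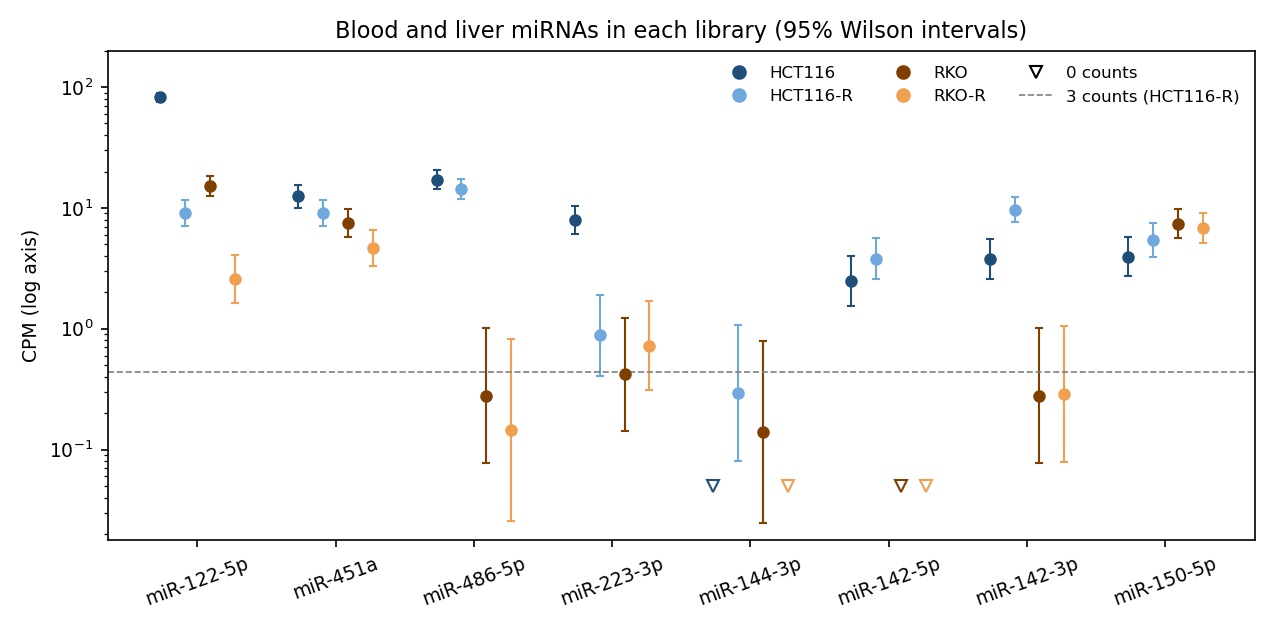
Level of each of the 8 miRNAs in CPM (log axis) in the 4 libraries. Points are single libraries with 95% Wilson intervals, open triangles mark 0 counts, and the dashed line marks 3 counts in HCT116-R; miR-122-5p in HCT116 stood highest at 82.1 CPM, and miR-144-3p did not exceed 2 counts in any library.

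MiR-122-5p was lower in the radioresistant library of both lines. The paper also assayed this miRNA by quantitative PCR, and did not name it among the miRNAs whose pattern there matched sequencing. The lower level described here therefore rests on the sequencing counts alone. In HCT116, miR-122-5p was counted 560 times, or 82.1 CPM (95% Wilson interval 75.6 to 89.2), against 62 times in HCT116-R, or 9.09 CPM (7.09 to 11.7). In RKO it was counted 109 times, or 15.3 CPM (12.7 to 18.4), against 18 times in RKO-R, or 2.60 CPM (1.65 to 4.12). The level was thus 9.03-fold lower in HCT116-R (95% exact interval 6.93 to 11.9) and 5.86-fold lower in RKO-R (3.54 to 10.3). Its rank among the listed miRNAs, counted from the most abundant, went from 174 of 1105 in HCT116 to 348 of 1198 in HCT116-R, and from 253 of 1006 in RKO to 385 of 992 in RKO-R. Of the 318 miRNAs with at least 100 counts in a library of the HCT116 pair, 7 had a lower ratio than miR-122-5p. Of the 272 such miRNAs of the RKO pair, 8 had a lower ratio.

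**Figure D2:**
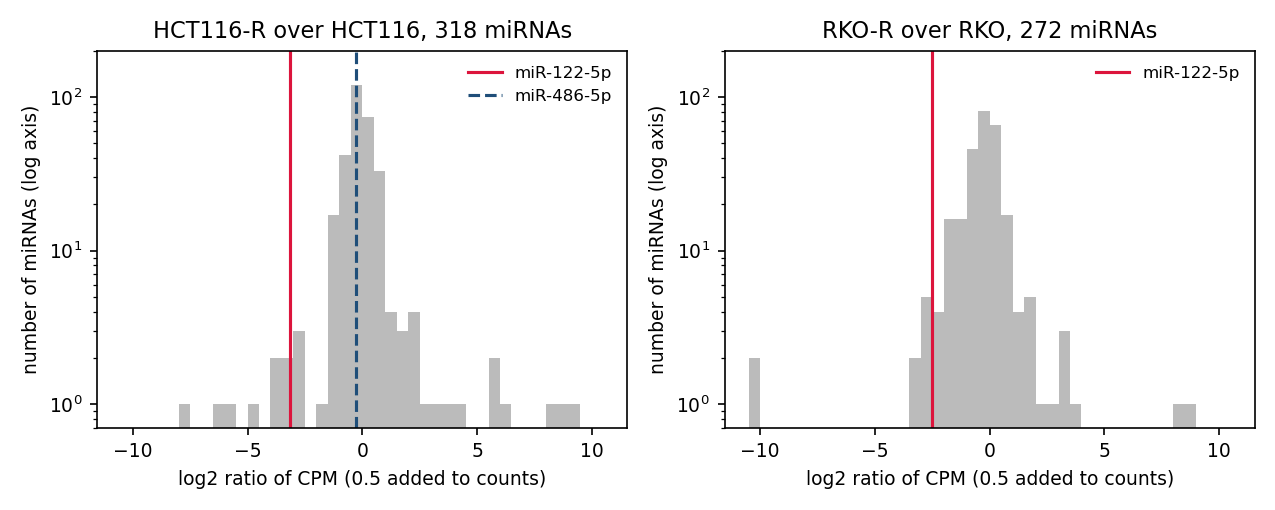
Distribution of the log2 ratio of CPM, radioresistant over parental, for miRNAs with at least 100 counts in a library of the pair (0.5 added to each count; number of miRNAs on a log axis). The solid line marks miR-122-5p, with 7 of 318 miRNAs below it in the HCT116 pair and 8 of 272 in the RKO pair, and the dashed line marks miR-486-5p, with 133 of 318 miRNAs below it in the HCT116 pair.

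The other products of the locus were near or at 0. MiR-122-3p, the passenger arm, had 2 counts in HCT116 and was not listed in the other libraries, so the 5p arm held 99.6% of the counts of both arms in HCT116 (95% exact interval 98.7% to 99.96%). The name miR-3591-3p was listed in no library. MiR-122b-3p had 4 counts in HCT116, 1 in RKO and 0 in both radioresistant libraries.

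Among the blood miRNAs, miR-223-3p was lower by a similar factor, in the HCT116 pair. It was counted 54 times in HCT116 (7.91 CPM, interval 6.07 to 10.3) and 6 times in HCT116-R (0.880 CPM, 0.403 to 1.92), which was 8.99-fold lower (95% exact interval 3.87 to 25.6). MiR-122-5p had 10.4 counts for each count of miR-223-3p in HCT116 and 10.3 in HCT116-R. In RKO and RKO-R miR-223-3p had 3 and 5 counts, a ratio of 1.72 with an interval from 0.335 to 11.1. A drop of that size could not have been seen in the RKO pair, where the parental library was at the floor. MiR-223-5p, its passenger arm, did not exceed 2 counts in any library.

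MiR-451a was lower in both radioresistant libraries, by less. It had 85, 62, 54 and 32 counts, which were 12.5, 9.09, 7.56 and 4.63 CPM. The level was 1.37-fold lower in HCT116-R (95% exact interval 0.976 to 1.93) and 1.63-fold lower in RKO-R (1.04 to 2.61), by library totals, and the first of these intervals includes no difference. With the TMM scaling of edgeR the log2 ratio in RKO-R was -0.47, with an interval from -1.15 to 0.19 that includes no difference as well. MiR-122-5p had 6.59 counts for each count of miR-451a in HCT116 and 1.00 in HCT116-R, a drop of this ratio by 6.59-fold (95% interval from counting error, 4.23 to 10.2). In the RKO pair it had 2.02 and 0.563 counts for each count of miR-451a, a drop of 3.59-fold (1.76 to 7.41). These ratios do not depend on how the libraries are scaled.

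MiR-144-3p, from the same erythroid transcript as miR-451a, was nearly absent. It had 0, 2, 1 and 0 counts, all under the floor, so no fold was computed. Of the counts of both miRNAs, miR-451a held 85 of 85, 62 of 64, 54 of 55 and 32 of 32. MiR-144-5p and miR-451b, which is annotated antisense to miR-451a, were listed in no library.

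MiR-486-5p, which red blood cells hold in large amounts and which muscle also makes, was found in the HCT116 line. It was counted 117 times in HCT116 (17.1 CPM) and 98 times in HCT116-R (14.4 CPM), a ratio of 0.838 (95% exact interval 0.634 to 1.11). RKO and RKO-R had 2 and 1 counts. MiR-122-5p had 4.79 counts for each count of miR-486-5p in HCT116 and 0.633 in HCT116-R, a drop of 7.57-fold (5.11 to 11.2). MiR-486-3p, the other arm, had 206, 95, 0 and 3 counts, and was 2.17-fold lower in HCT116-R than in HCT116 (1.69 to 2.79). The 5p arm held 36.2% of the counts of both arms in HCT116 (95% exact interval 31.0% to 41.7%) and 50.8% in HCT116-R (43.5% to 58.0%). The hairpins MIR486-1 and MIR486-2 are annotated at overlapping positions, so the division of reads between the arms is uncertain where strand was not used in counting, and the use of strand is not given in the sources used here.

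Of the arms of MIR142, miR-142-3p was higher in HCT116-R. It was counted 26 times in HCT116 (3.81 CPM) and 66 times in HCT116-R (9.68 CPM), a ratio of 2.54 (95% exact interval 1.59 to 4.17). MiR-142-5p had 17 and 26 counts, a ratio of 1.53 (0.799 to 3.01), and this interval includes no difference. In RKO and RKO-R miR-142-3p had 2 counts in each, and miR-142-5p was listed in neither. MiR-122-5p had 21.5 counts for each count of miR-142-3p in HCT116 and 0.939 in HCT116-R, a drop of 22.9-fold (13.2 to 40.3).

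MiR-150-5p was the only member other than miR-122-5p and miR-451a with more than 10 counts in all 4 libraries. It had 27, 37, 53 and 47 counts, which were 3.96, 5.43, 7.42 and 6.80 CPM. The ratio was 1.37 in the HCT116 pair (95% exact interval 0.813 to 2.34) and 0.916 in the RKO pair (0.605 to 1.38), and both intervals include no difference. With TMM the log2 ratio in the RKO pair was 0.11 in place of -0.13, so its direction depended on the scaling. MiR-122-5p had 2.06 counts for each count of miR-150-5p in RKO and 0.383 in RKO-R, a drop of 5.37-fold (2.73 to 10.8), and the drop in the HCT116 pair was 12.4-fold (6.79 to 22.6). MiR-150-3p had at most 4 counts in a library.

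**Figure D3:**
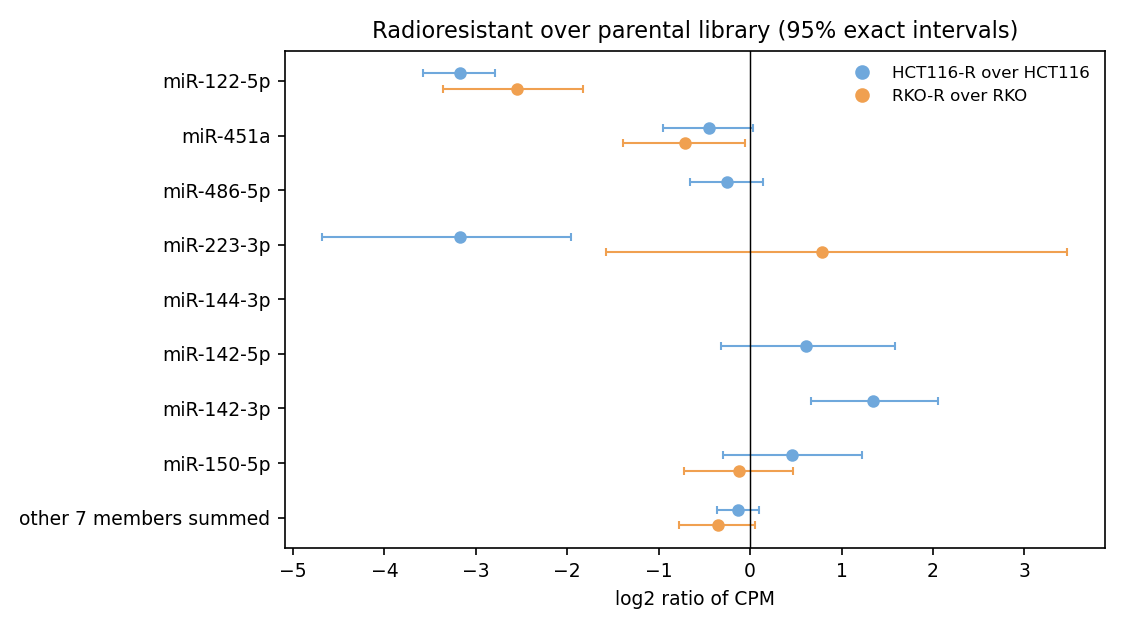
Log2 ratio of CPM, radioresistant over parental library, for each member and for the sum of the 7 members other than miR-122-5p; points are single pairs of libraries and bars are 95% exact intervals for counting error. MiR-122-5p lay at -3.17 and -2.55, while the sum of the other 7 lay at -0.13 (HCT116 pair) and -0.36 (RKO-R over RKO); a member with at most 3 counts in both libraries of a pair has no point.

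The 7 members other than miR-122-5p summed to 326, 297, 115 and 87 counts. The ratio of the sums was 0.912 for HCT116-R over HCT116 (95% exact interval 0.776 to 1.07) and 0.781 for RKO-R over RKO (0.585 to 1.04). The lower level of miR-122-5p was thus accompanied by a drop of similar size in 1 blood miRNA, miR-223-3p in HCT116-R, and in none of the others that could be measured in that pair. Without miR-223-3p the log2 ratio of the sum in the HCT116 pair was 0.098 in place of -0.13. The sum holds miR-486-5p without miR-486-3p, although the division of reads between these arms is uncertain. MiR-486-3p had 206, 95, 0 and 3 counts, and the sum with it added was not tested. RNA of the culture serum was not measured, and its part in any of these levels was not tested.

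Each pair was also compared over all miRNAs with the exact test of edgeR at the biological coefficient of variation (BCV) of 0.2 named in the methods, with a call at a Benjamini-Hochberg adjusted p under 0.05. In the HCT116 pair, 2 of the 8 members were called lower (miR-122-5p and miR-223-3p) and 0 higher, where 1.66% of all 1322 miRNAs tested were called lower and 2.34% higher. In the RKO pair, 1 of the 7 members tested was called lower (miR-122-5p) and 0 higher, where 3.03% of 1155 miRNAs were called lower and 2.51% higher. The members were chosen with these comparisons known, so nothing is read from these counts. Medians were taken over the members with more than 3 counts in a library of the pair, with 0 counts set to the floor. The median log2 ratio was -0.25 for 7 members in the HCT116 pair and -0.42 for 4 members in the RKO pair. Over all miRNAs it was 0.05 for 895 and -0.29 for 772. The member medians include miR-122-5p, which was selected on its lower level in these pairs, so nothing is read from them. The calls compare libraries and rest on the assumed BCV. At a BCV of 0.4, miR-223-3p in HCT116-R and miR-122-5p in RKO-R were no longer called. In 1 edgeR quasi-likelihood fit of all 4 libraries, with the cell line as a block and 1 residual degree of freedom, 4 of 598 miRNAs were called for radioresistance (10 at an unadjusted p under 0.05). Of the 6 members tested there, 0 were called and 1 had an unadjusted p under 0.05.

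The members were next compared between the cell lines, a contrast that had not been used to choose them. HCT116 was set against RKO and, in separate libraries, HCT116-R against RKO-R. Of the 8 members, 5 were called different between HCT116 and RKO, where 25.5% of 1289 miRNAs were called (220 higher in HCT116 and 109 lower), and all 5 were higher in HCT116. In the radioresistant lines 4 were called different, where 23.2% of 1333 miRNAs were called (213 higher in HCT116-R and 96 lower), and all 4 were higher in HCT116-R. MiR-122-5p, miR-486-5p, miR-142-3p and miR-142-5p were called in both comparisons.

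MiR-486-5p had the highest ratio of the members counted in both lines, with 117 counts in HCT116 against 2 in RKO (ratio 61.2, 95% exact interval 16.6 to 511; adjusted p = 5.56e-13, edgeR exact test). In the radioresistant lines it had 98 counts against 1 (ratio 99.4, interval 17.4 to 3964; adjusted p = 2.19e-10, edgeR exact test). MiR-142-3p had 26 counts in HCT116 and 2 in RKO (ratio 13.6, 3.41 to 118; adjusted p = 0.000568, edgeR exact test), and 66 in HCT116-R and 2 in RKO-R (ratio 33.5, 8.90 to 282; adjusted p = 3.94e-07, same test). MiR-142-5p, with 0 counts in RKO and RKO-R, was at least 5.93-fold higher in HCT116 and at least 8.79-fold higher in HCT116-R when set against 3 counts per library (adjusted p = 0.000529 and 5.76e-05, edgeR exact test). Both arms of MIR142 were thus detected mainly in the HCT116 line. MiR-122-5p was 5.38-fold higher in HCT116 than in RKO (4.37 to 6.66) and 3.49-fold higher in HCT116-R than in RKO-R (2.04 to 6.27). On the log2 scale the latter was 1.80 by library totals and 1.46 with TMM, and its call was lost with the size factors of DESeq2 and at a BCV of 0.4.

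MiR-223-3p separated the parental lines, with 54 counts in HCT116 and 3 in RKO (ratio 18.8, 6.11 to 94.2; adjusted p = 6.76e-07, edgeR exact test). In the radioresistant lines it had 6 and 5 counts, a ratio of 1.22 with an interval from 0.309 to 5.04 (adjusted p = 1, edgeR exact test), and its log2 ratio was 0.28 by library totals and -0.05 with TMM. MiR-451a was 1.65-fold higher in HCT116 than in RKO (1.16 to 2.36) and 1.96-fold higher in HCT116-R than in RKO-R (1.26 to 3.11), and was called in neither comparison (adjusted p = 0.223 and 0.540, edgeR exact test). MiR-150-5p was higher in the RKO line in both comparisons, by 1.88-fold (1.16 to 3.10) against HCT116 and by 1.25-fold (0.797 to 1.98) in RKO-R against HCT116-R, and was not called (adjusted p = 0.362 and 0.540, edgeR exact test).

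**Figure D4:**
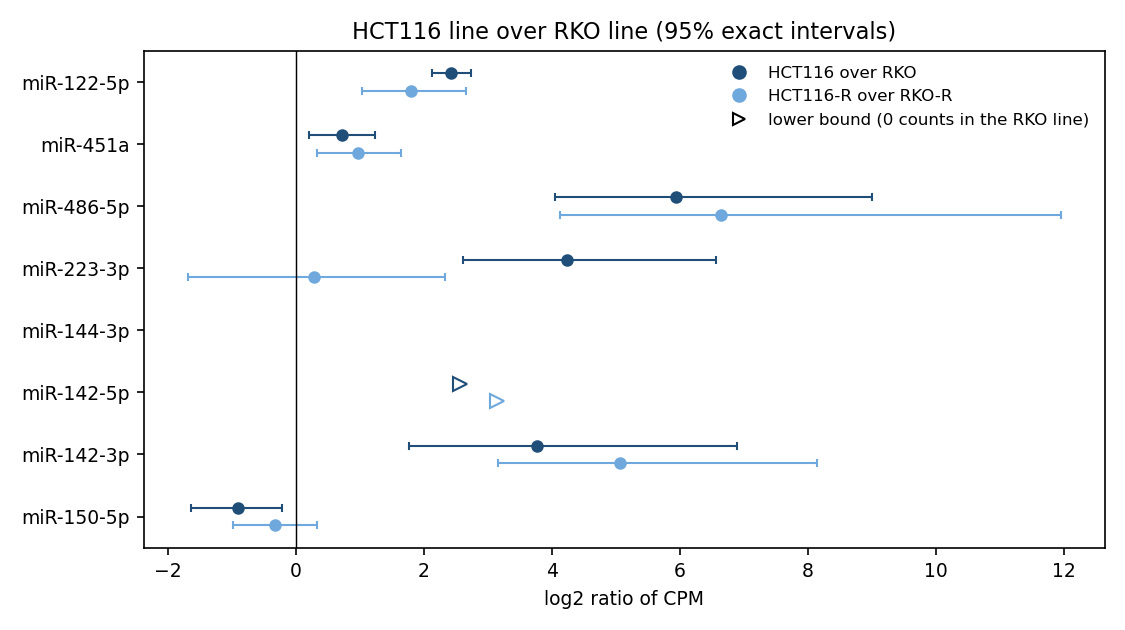
Log2 ratio of CPM of the HCT116 line over the RKO line, for parental libraries (dark) and radioresistant libraries (light), with 95% exact intervals for counting error; open triangles are lower bounds for miR-142-5p, which had 0 counts in RKO and RKO-R. Of the members counted in both lines, miR-486-5p lay highest, at 5.94 and 6.63, miR-150-5p lay below 0 in both comparisons, and miR-144-3p has no point because it did not exceed 2 counts.

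Further miRNAs of the same tissues were examined by list. Besides miR-122-5p, the liver list held miR-122-3p, miR-885-5p and miR-885-3p, of which 0 of 3 were called in the HCT116 pair and 3 were listed in neither RKO nor RKO-R. MiR-885-5p, the more abundant arm of its hairpin, had 9, 14, 0 and 0 counts. Of the 4 erythroid miRNAs outside the set, 0 were called in either pair, and miR-4732-5p and miR-144-5p were listed in no library. Of the 6 further miRNAs of white blood cells, 1 was called higher and 1 lower in HCT116-R. In RKO-R, 1 of the 4 tested there was called higher. Over all miRNAs 2.34% were called higher and 1.66% lower in HCT116-R, and 2.51% higher and 3.03% lower in RKO-R, which is the background for each list. MiR-155-5p, an inflammatory miRNA of lymphocytes and macrophages, had 14, 157, 33913 and 39597 counts and was called higher in HCT116-R (log2 fold change 3.45). MiR-342-3p had 690, 270, 0 and 1 counts and was called lower in HCT116-R (log2 fold change -1.37), and miR-342-5p had 189, 154, 0 and 0 counts. MiR-146a-5p had 90, 135, 140 and 308 counts and was called higher in RKO-R (log2 fold change 1.42).

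MiR-126-3p and miR-126-5p, known from platelets and endothelium, were well above the members and were called in neither pair. MiR-126-3p had 26945, 23539, 59485 and 55431 counts. Of 16 miRNAs that circulate in plasma and are also made by epithelium, 2 were called lower and 0 higher in HCT116-R, and 1 was called lower and 1 higher in RKO-R, against the background of 1.66% lower and 2.34% higher in HCT116-R and 3.03% lower and 2.51% higher in RKO-R. The median log2 fold change of these 16, with TMM, was -0.47 for HCT116-R and -0.08 for RKO-R, against 0.07 and 0.02 over all miRNAs tested. The called ones were miR-423-5p, lower in both pairs, and miR-103a-3p, lower in HCT116-R and higher in RKO-R. Both are encoded opposite another miRNA and are uncertain when taken singly. MiR-423-5p had 20749, 95, 11237 and 10 counts, while miR-3184-3p on the opposite strand had 38, 13716, 50 and 13335. The log2 ratio of their sum was -0.59 for HCT116-R and 0.29 for RKO-R. MiR-103a-3p had 275, 90, 1001 and 7928 counts and miR-103b, opposite to it, had 4701, 3552, 6939 and 695, with log2 ratios of the sum of -0.45 and 0.17. The 4 miRNAs of this list with the highest count in any library, miR-21-5p, let-7i-5p, miR-92a-3p and miR-191-5p, were called in neither pair.

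Of 17 miRNAs restricted to muscle, brain, pancreas or gonads, 4 were listed in no library. In the HCT116 pair 0 of 13 tested were called higher and 1, miR-129-5p, was called lower, going from 70 counts to 12, and in the RKO pair 0 of 9 were called. MiR-499a-5p, a miRNA of heart and slow muscle, was the only one of this list with at least 100 counts, at 712, 547, 269 and 390 counts. The muscle miRNAs miR-1-3p and miR-206 had at most 7 counts in any library, fewer than miR-451a. In the list of gut epithelium, 0 of 10 miRNAs were called in the HCT116 pair and 1 of 9, miR-200c-3p, was called higher in the RKO pair, with 649 counts in RKO and 1426 in RKO-R.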

How the data were processed

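Total RNA of each line was extracted with Trizol and size-selected by gel, ligated to adapters with unique molecular identifiers, and sequenced on the BGISEQ-500 platform. Per library, a table of unnormalized counts by mature miRNA was deposited, from which miRNAs without a count are absent. The submitters' processing notes name Bowtie2 and hg38. The miRNA annotation, the use of strand and the collapsing of identifiers are not given in the sources used here. Groups came from the sample labels.

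Tables were joined by name, with a missing miRNA set to 0, and CPM were taken from library totals. The files hold no columns of other samples. CPM have 95% Wilson intervals, and shares of an arm and ratios of 2 libraries have 95% exact (Clopper-Pearson) intervals. A ratio against 0 counts was computed against a floor of 3 counts per library. Against 1 to 3 counts the ratio and its interval are given, which departs from the plan to use the floor there. Pairs of libraries were tested with the exact test of edgeR 4.0.16 (R 4.3.3) with TMM, a BCV of 0.2 and Benjamini-Hochberg adjustment over every miRNA counted in either library. All 4 libraries were also fitted together with the quasi-likelihood test of edgeR, with radioresistance as a term and the cell line, which pairs the libraries in the labels, as a block, after the filter of edgeR on low counts. Both tests were tried on simulated counts.

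The members and lists were chosen with earlier results of these data known. The members, their other arms and antisense miRNAs sharing at least 16 bases were named, as were up to 4 miRNAs a list with at least 100 counts in a library. Other names were chosen after their values were seen. Alternatives were a BCV of 0.1 or 0.4, library totals, DESeq2 1.42.0 size factors, a minimum of 1 CPM, and summed antisense partners. Antisense partners to be summed were searched only for the members with a matched sequence. Mature sequences and positions are from RefSeq on GRCh38.p14, and host genes from GENCODE release 29. Python 3.11.15, pandas 2.3.3 and scipy 1.17.1 were used.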

Additional observations from a re-analysis of the deposited data

Results flagged for a closer look

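MiR-223-3p and miR-150-5p moved in opposite directions in the pairs, and the differences were not tested. The log2 ratio of CPM of miR-223-3p was -3.17 in HCT116-R over HCT116 and 0.78 in RKO-R over RKO, where it rested on 5 and 3 counts. For miR-150-5p the value was 0.46 for HCT116-R over HCT116 but -0.13 for RKO-R over RKO, and the 95% exact intervals of both include 0. With TMM scaling the value of miR-150-5p in the RKO pair was 0.11, so its direction there depends on the scaling.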

How the results depend on the processing

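With 1 library per line, no replicate could be left out and the number of libraries limits every statement. In the paired fit of all 4 libraries, with the cell line as a block, 4 miRNAs were called, in place of 53 and 64, and 0 members were called lower, in place of 2 and 1. This fit estimates the spread from the libraries with 1 residual degree of freedom and was chosen after the data had been seen. The call of miR-122-5p between HCT116-R and RKO-R was lost with DESeq2 size factors and at a BCV of 0.4, and miR-451a was called between HCT116 and RKO at a BCV of 0.1. The calls depended on the assumed BCV. At a BCV of 0.1, 154 miRNAs (HCT116 pair) and 148 (RKO pair) were called, in place of 53 and 64, and miR-142-3p was then called higher in HCT116-R. At a BCV of 0.4, 24 and 9 were called in these pairs, 152 in place of 329 between HCT116 and RKO, and 140 in place of 309 between HCT116-R and RKO-R. The members called lower were then 1 (HCT116 pair) and 0 (RKO pair), in place of 2 and 1. The log2 ratio of the sum of the 7 members other than miR-122-5p in the HCT116 pair was 0.098 without miR-223-3p, in place of -0.13. That alternative, the sums without miR-486-5p and the sum of miR-122-5p with miR-122b-3p were chosen after the data had been seen. Scaling by TMM in place of library totals raised all log2 ratios of the RKO pair by 0.24, and DESeq2 size factors raised them by 0.36, so that the sum of the other 7 members lay at 0.0052 and miR-122-5p at -2.19. In the HCT116 pair these shifts were -0.02 and -0.10. The shifts were 0.13 and 0.07 for HCT116 over RKO and -0.33 and -0.39 for HCT116-R over RKO-R, where TMM turned the direction of miR-223-3p. The summing of antisense partners changed no value, since the only partner found, miR-3591-3p, had no counts under that name. Partners were searched for the 5 members with a matched sequence, so miR-451a, miR-486-5p and miR-150-5p were not covered. No alternative added miR-486-3p to miR-486-5p or to the sum of the members other than miR-122-5p. Levels under 3 counts, as for miR-144-3p in all libraries and for miR-486-5p and miR-142-3p in RKO and RKO-R, are limited by depth.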
